A study of Mus musculus with 9 samples.

Results

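The mRNA of 37 genes of the core cell cycle machinery was compared between 3 mouse pluripotent cell lines. The genes encode the cyclins, the cyclin-dependent kinases (CDKs), the CDK inhibitors, the pocket proteins, the E2F factors, the CDK phosphatases with Wee1, and the licensing pair Cdt1 and Gmnn. They were chosen by gene name as members of this machinery, with earlier results of these data known. Of the 37, 36 had a probe set that the platform annotation gives to 1 gene symbol, out of 19938 genes measured in all, and Ccnb1 was not analysed here. Where a gene had several such probe sets, the one with the highest mean log2 intensity over the 9 arrays was used, which concerned Cdk7, Cdkn1b and E2f3.

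P19 NTES7 is a stem cell line made by transferring nuclei of P19 cells into enucleated oocytes and culturing the cloned blastocysts. P19 is the embryonal carcinoma line that gave those nuclei, and R1 is an embryonic stem (ES) cell line used as the normal pluripotent control. Total RNA from each line was hybridised to 3 GeneChip Gene 1.0 ST arrays, and the values are linear intensities after Robust Multichip Average (RMA). The 9 arrays had median intensities of 16.5 to 17.5, and the median of these, 16.8, is called the array median from here on. The labels name no transgene, allele or drug for any line, and all of them were grown in serum medium with leukemia inhibitory factor. Each line stands for its type through 1 line only. The methods state that the stem cell lines were kept on mitomycin C-treated mouse embryonic fibroblasts and P19 cells were not, while the sample descriptions state that feeder cells were removed before RNA extraction. Each array is labelled as a biological repeat, but no source says whether the repeats were separate cultures. The p-values therefore measure array-to-array spread within a line, which may be technical. All 10 markers of pluripotent cells averaged above the array median in every line, but not at even levels. Sall4 averaged 393 ± 31.4 in P19 NTES7, 449 ± 34.4 in P19 and 455 ± 64.9 in R1 (SD, n = 3 each). Tdgf1 averaged 1823 ± 88.2, 1779 ± 136 and 2275 ± 87.9 in the same order, and the others differed more. Pou5f1 averaged 1471 ± 199 in P19 NTES7, 2196 ± 109 in P19 and 1470.1 ± 153 in R1, and Sox2 averaged 542 ± 4.37, 665 ± 68.4 and 884 ± 43.5 in the same order (SD, n = 3 each). Nanog averaged 627 ± 11.4 in P19 NTES7, 178 ± 15.6 in P19 and 913 ± 59.4 in R1, and Utf1 averaged 73.5 ± 20.3, 471 ± 70.4 and 584 ± 79.1. Zfp42 averaged 41.7 ± 3.19 in P19 NTES7, 19.7 ± 5.19 in P19, near the array median, and 289 ± 37.8 in R1.

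Cells pass from G1 into S phase when D-type cyclins with Cdk4 or Cdk6, and then E-type cyclins with Cdk2, phosphorylate the pocket proteins Rb1, Rbl1 and Rbl2 and so release E2F factors, which switch on the genes of DNA replication. CDK inhibitors of the Ink4 family (Cdkn2a to Cdkn2d) and the Cip/Kip family (such as Cdkn1b) restrain these kinases, and Cdc25 phosphatases and Wee1 set the activity of Cdk2 and Cdk1 by removing or adding inhibitory phosphates. Mouse ES cells are known for a short G1 phase, low levels of D-type cyclins and high cyclin E-Cdk2 activity through most of the cycle.

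Ccnd1, Ccnd2 and Rb1 were lower in P19 NTES7 and in P19 than in R1. Cdkn2b was also lower, and Cdkn1b and Cdc25b higher, in P19 than in R1. Calling a member required an adjusted p under 0.01 together with over 2-fold change, and 6 members were called in at least 1 comparison. By the adjusted p alone, at any fold, 19 members passed in at least 1 comparison and 17 in none. The A- and B-type cyclins, Cdk1, Cdk4, Cdk6, Cdc25a and Wee1 were among the 17.

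Between P19 NTES7 and P19, 0 of 36 members were called, where 2.83% of all genes and 4.88% of the genes above the median of all probe sets were. At an unadjusted limma p under 0.05, 15 members passed, 0 of them at over 2-fold, and the one-way test of the methods called 0 as well. The share of all genes at that unadjusted limit was not counted, so the 15 cannot be read as a result about the members. By the adjusted p alone 6 members passed, 1 higher (Ccne2) and 5 lower (Ccne1, Cdc25b, Cdkn3, E2f3 and E2f6) in P19 NTES7. That is 16.7% of the members, against 12.1% of all genes and 19.3% of the brighter genes. Of the brighter genes 7.17% passed in the higher and 12.2% in the lower direction. The 3 arrays of P19 NTES7 did not overlap the 3 arrays of P19 for 19 members (52.8%), against 36.2% of all genes and 48.2% of the brighter genes. The median log2 difference of the members was -0.07, beside -0.08 for the brighter genes.

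Between P19 NTES7 and R1, 3 members were called (8.33%, against 4.51% of all genes and 7.87% of the brighter genes), all of them lower in P19 NTES7, a direction in which 4.81% of the brighter genes were called. By the adjusted p alone 12 members passed, 3 higher (Cdc25c, Cdkn1b and Cdkn3) and 9 lower (Ccnd1, Ccnd2, Ccne1, Cdk2, Cdk7, Cdkn2b, E2f8, Rb1 and Rbl2) in P19 NTES7. That is 33.3%, against 18.7% of all genes and 30.8% of the brighter genes. In the higher direction 15.6% of the brighter genes passed and in the lower direction 15.2%. The arrays did not overlap for 22 members (61.1%), against 39.0% of all genes and 55.4% of the brighter genes. The median log2 difference of the members was -0.13, beside 0.02 for the brighter genes.

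Between P19 and R1, 6 members were called (16.7%, against 7.31% of all genes and 12.4% of the brighter genes). Of these, 2 were higher in P19 (Cdc25b and Cdkn1b) and 4 were lower (Ccnd1, Ccnd2, Cdkn2b and Rb1), directions in which 6.13% and 6.30% of the brighter genes were called. By the adjusted p alone 14 members passed, 6 higher (Cdc25b, Cdc25c, Cdkn1b, Cdkn3, E2f6 and Rbl1) and 8 lower (Ccnd1, Ccnd2, Cdk7, Cdkn2a, Cdkn2b, Cdt1, Rb1 and Rbl2) in P19. That is 38.9%, against 25.0% of all genes and 39.5% of the brighter genes, with 23.9% of the brighter genes passing in the higher and 15.6% in the lower direction. The arrays did not overlap for 25 members (69.4%), against 47.4% of all genes and 63.1% of the brighter genes. The median log2 difference of the members was -0.16, beside 0.09 for the brighter genes. The 3 comparisons share arrays with each other, so their counts are not separate evidence.

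**Figure D1:**
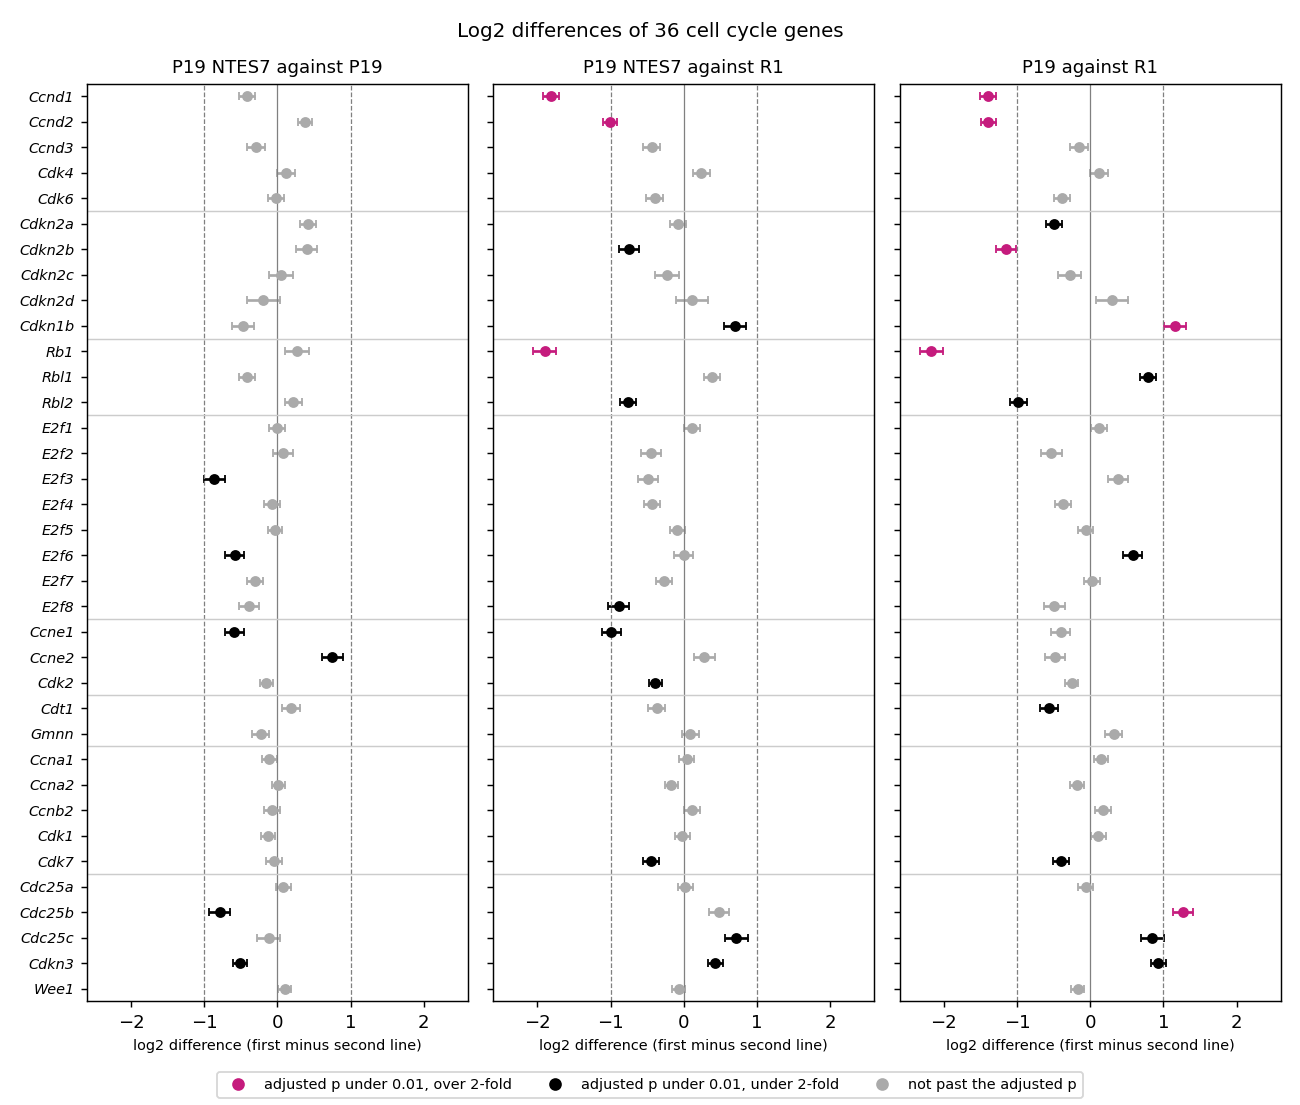
The log2 differences of the 36 measured members are plotted for P19 NTES7 against P19, P19 NTES7 against R1 and P19 against R1, with bars of 1 standard error from limma and dashed lines at 2-fold. No member lies beyond 2-fold in the first panel, and the members farthest to the left in the other panels are Ccnd1 and Rb1.

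Promoter sequences are shown for the called members that have an entry in the RefSeq promoter table (build GRCm38.p6) and for 3 others that carry the words searched. They are E2f3, which had the most negative difference between P19 NTES7 and P19, Rbl1, and Ccnb2, which passed in no comparison. Each run is 170 bases before to 30 bases after the annotated start, 5′ to 3′ on the strand of the gene. Capitals mark E2F words and cell cycle homology region (CHR) words, the elements through which E2F factors and the MuvB complex with B-Myb or Foxm1 are known to act. The positions are Cdkn1b chr6:134920231-134920430 (+), Cdc25b chr2:131186778-131186977 (+), Cdkn2b chr4:89311003-89311202 (-), E2f3 chr13:29986034-29986233 (-), Rbl1 chr2:157204505-157204704 (-) and Ccnb2 chr9:70421525-70421724 (-).
Cdkn1b: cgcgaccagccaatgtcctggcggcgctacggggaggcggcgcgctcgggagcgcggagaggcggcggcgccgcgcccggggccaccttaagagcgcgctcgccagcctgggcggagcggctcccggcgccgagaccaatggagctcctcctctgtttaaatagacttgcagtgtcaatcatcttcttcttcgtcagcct
Cdc25b: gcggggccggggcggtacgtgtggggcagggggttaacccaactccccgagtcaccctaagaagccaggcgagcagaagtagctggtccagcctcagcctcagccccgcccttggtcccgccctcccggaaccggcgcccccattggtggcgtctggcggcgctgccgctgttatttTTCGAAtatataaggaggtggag
Cdkn2b: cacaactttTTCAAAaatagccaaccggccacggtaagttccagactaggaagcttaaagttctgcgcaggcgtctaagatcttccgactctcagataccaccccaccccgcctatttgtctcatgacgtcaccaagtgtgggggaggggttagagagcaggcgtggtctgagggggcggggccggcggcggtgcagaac
E2f3: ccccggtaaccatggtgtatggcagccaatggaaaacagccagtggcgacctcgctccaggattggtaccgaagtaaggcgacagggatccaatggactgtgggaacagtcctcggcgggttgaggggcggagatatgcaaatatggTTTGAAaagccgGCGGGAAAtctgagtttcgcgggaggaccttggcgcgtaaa
Rbl1: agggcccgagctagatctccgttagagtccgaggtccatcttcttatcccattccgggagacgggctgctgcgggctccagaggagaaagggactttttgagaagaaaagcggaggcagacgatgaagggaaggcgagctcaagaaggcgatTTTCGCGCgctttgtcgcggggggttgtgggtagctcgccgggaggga
Ccnb2: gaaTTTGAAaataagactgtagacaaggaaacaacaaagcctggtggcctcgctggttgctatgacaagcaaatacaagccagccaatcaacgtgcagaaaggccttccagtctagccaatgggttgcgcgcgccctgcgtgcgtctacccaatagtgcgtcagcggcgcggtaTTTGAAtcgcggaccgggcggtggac

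The words were searched on both strands in the full windows of the table, 250 bases before to 50 bases after the start. Of the 37 members 27 had a window, and Ccnd1, Ccnd2, Rb1, E2f4, E2f5, Ccne2, Gmnn, Ccna2, Cdc25c and Wee1 had none. An E2F word (TTTCCCGC, TTTCGCGC, TTTGCCGC or TTTGGCGC) was found in 9 of the 27 genes, namely Cdc25a, Cdk1, Cdk2, Cdkn2a, Cdt1, E2f2, E2f3, E2f7 and Rbl1, and in 2.26% of all 32851 windows. A CHR word (TTTGAA or TTCGAA) was found in 9 genes, Ccnb2, Cdc25b, Cdk1, Cdkn2b, Cdkn3, E2f2, E2f3, E2f8 and Rbl2, and in 19.2% of all windows. The GC box word GGGCGG was in 25 genes and in 35.7% of all windows, and CCAAT was in 17 genes and in 37.4% of all windows. Some genes had more than 1 window. Of the 32 windows of the 27 genes, 9 held an E2F word, 9 a CHR word, 28 GGGCGG and 18 CCAAT. Among the 9 members with an E2F word, E2f3 was lower in P19 NTES7 than in P19, Rbl1 was higher in P19 than in R1, Cdkn2a and Cdt1 were lower in P19 than in R1, Cdk2 was lower in P19 NTES7 than in R1, and Cdc25a, Cdk1, E2f2 and E2f7 passed in no comparison. The members with this word thus did not share a direction, and a match is a description of letters only.

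The D-type cyclins Ccnd1 and Ccnd2 were both lower in P19 NTES7 and in P19 than in R1. Ccnd1, which encodes cyclin D1, the partner of Cdk4 and Cdk6 that mitogens induce, had intensities of 174, 158 and 175 in P19 NTES7, 251, 231 and 195 in P19 and 602, 593 and 577 in R1. The R1 arrays lay far above all others, and the P19 NTES7 arrays lay below all P19 arrays. The log2 difference from R1 was -1.81 ± 0.11 (SE) in P19 NTES7, a 3.50-fold lower level (adjusted p = 3.93e-08), and -1.40 ± 0.11 in P19, 2.63-fold lower (adjusted p = 2.48e-07). Between P19 NTES7 and P19 the difference of -0.41 ± 0.11 did not pass (adjusted p = 0.0146).

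Ccnd2, for cyclin D2, had intensities of 140.1, 117 and 113 in P19 NTES7, 92.2, 93.4 and 97.0 in P19 and 239, 243 and 261 in R1. The lines did not overlap, with R1 highest and P19 lowest. The log2 difference from R1 was -1.01 ± 0.10 in P19 NTES7, 2.02-fold lower (adjusted p = 7.51e-06), and -1.39 ± 0.10 in P19, 2.63-fold lower (adjusted p = 1.72e-07). Its 2.02-fold in P19 NTES7 stood at the fold limit, and Ccnd2 was not called there without P19 NTES7 replicate 2 (-0.98), without P19 NTES7 replicate 3 (-0.95) or without R1 replicate 3 (-0.97), although its adjusted p stayed under 0.01 in each case. P19 NTES7 was above P19 by 0.38 ± 0.10, which did not pass (adjusted p = 0.0181).

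The other members of this group did not pass in any comparison. Ccnd3, for cyclin D3, averaged 51.7 ± 5.68 in P19 NTES7, 63.2 ± 7.82 in P19 and 70.1 ± 4.83 in R1 (SD, n = 3 each), with adjusted p = 0.0124 between P19 NTES7 and R1. Cdk4 and Cdk6 are the kinases that D-type cyclins activate. Cdk4 had log2 differences between 0.12 and 0.24 in the 3 comparisons. Cdk6 averaged 173 ± 14.6 in P19 NTES7, 177 ± 20.9 in P19 and 229 ± 14.5 in R1, and the differences from R1 were -0.40 (adjusted p = 0.0173) for P19 NTES7 and -0.38 (adjusted p = 0.0196) for P19.

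**Figure D2:**
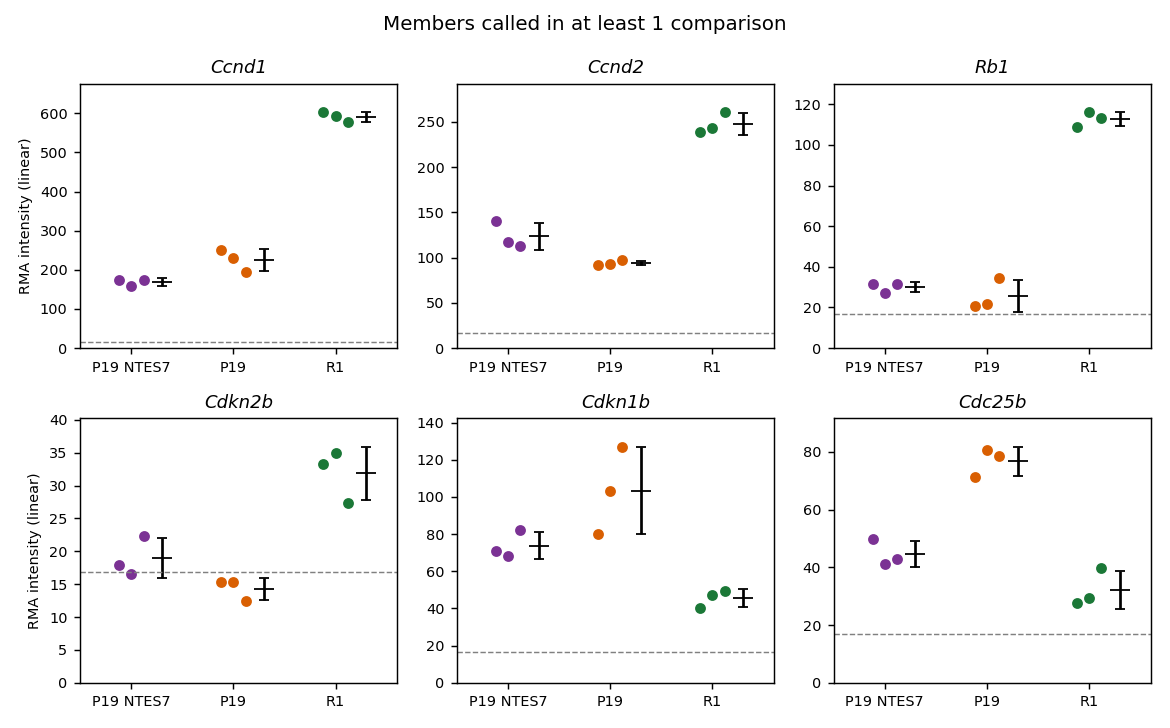
RMA intensities of the 6 called members are plotted on linear axes that start at 0 for the 3 arrays of P19 NTES7, P19 and R1, with the mean and SD beside the points and the array median of 16.8 as a dashed line. For Ccnd1, Ccnd2, Rb1 and Cdkn2b the R1 points lie above all others, and for Cdkn1b and Cdc25b they lie below.

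Rb1, the retinoblastoma protein that holds activating E2Fs in check, had the largest difference of any member. Its intensities were 31.5, 27.1 and 31.7 in P19 NTES7, 20.7, 21.7 and 34.7 in P19 and 109, 116 and 113 in R1. Every R1 array was above every array of the other lines, and P19 NTES7 and P19 overlapped through the third P19 array. The level was 3.74-fold lower in P19 NTES7 than in R1 (log2 difference -1.90 ± 0.16, adjusted p = 1.50e-06) and 4.49-fold lower in P19 than in R1 (-2.17 ± 0.16, adjusted p = 2.06e-07). P19 NTES7 and P19 differed by 0.27 ± 0.16 (adjusted p = 0.308).

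The related pocket proteins Rbl1 (p107) and Rbl2 (p130), which bind mainly the repressive E2Fs, moved in opposite directions between P19 and R1. Rbl1 had intensities of 91.1, 77.7 and 88.8 in P19 NTES7, 114, 110.3 and 118 in P19 and 60.9, 61.4 and 76.5 in R1. The 3 lines were ordered without overlap, P19 highest and R1 lowest, and the difference that passed was that of P19 over R1 (0.79 ± 0.11, adjusted p = 8.06e-05). Rbl2 had intensities of 22.3, 25.8 and 23.5 in P19 NTES7, 21.6, 22.2 and 17.8 in P19 and 38.9, 38.7 and 43.6 in R1. All R1 arrays were above the others for Rbl2, which was 1.70-fold lower in P19 NTES7 than in R1 (-0.76 ± 0.11, adjusted p = 1.63e-04) and 1.98-fold lower in P19 than in R1 (-0.98 ± 0.11, adjusted p = 1.07e-05). Each level is an average over the cells of a culture, so fewer cells with a transcript and less of it per cell cannot be told apart.

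Among the CDK inhibitors, 2 were called, both between P19 and R1 and in opposite directions. Cdkn2b (p15Ink4b), an inhibitor of Cdk4 and Cdk6, had intensities of 18.0, 16.5 and 22.4 in P19 NTES7, 15.3, 15.3 and 12.4 in P19 and 33.3, 35.0 and 27.3 in R1. The P19 values were all below the array median of 16.8, those of P19 NTES7 were around it, and those of R1 were above it without overlap. The log2 difference from R1 was -0.75 ± 0.14 in P19 NTES7 (1.68-fold lower, adjusted p = 0.00112) and -1.15 ± 0.14 in P19 (2.22-fold lower, adjusted p = 1.94e-05), and P19 NTES7 and P19 differed by 0.40 ± 0.14 (adjusted p = 0.0612). The call between P19 and R1 was lost with log2(value + 16), where the difference was -0.66, and under the methods' one-way test with Benjamini-Hochberg adjustment (adjusted p = 0.0182). Its promoter run printed above holds 1 CHR word on the opposite strand.

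Cdkn1b (p27Kip1), which binds cyclin E-Cdk2 and holds cells in G1, ran the other way. It had intensities of 70.8, 68.4 and 82.2 in P19 NTES7, 80.2, 103 and 127 in P19 and 40.2, 47.3 and 49.4 in R1. Every R1 array was below the arrays of both other lines, and P19 NTES7 overlapped the lowest P19 array. The level was 1.62-fold higher in P19 NTES7 than in R1 (0.70 ± 0.15, adjusted p = 0.00379) and 2.24-fold higher in P19 than in R1 (1.16 ± 0.15, adjusted p = 4.17e-05). A second, dimmer Cdkn1b probe set was not called in any comparison, with differences from R1 of -0.04 (adjusted p = 0.878) in P19 NTES7 and 0.54 (adjusted p = 0.0134) in P19. The call was also lost at the fold limit without P19 replicate 3, the array with the highest value, where the adjusted p was 1.83e-04. Between P19 NTES7 and R1 the adjusted p was 0.0198 without R1 replicate 1, 0.0117 without P19 NTES7 replicate 1 and 0.0216 without P19 NTES7 replicate 3.

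The remaining Ink4 inhibitors were near or below the array median or did not pass. Cdkn2a, whose locus encodes p16Ink4a and p19Arf, had intensities of 15.6, 15.1 and 17.3 in P19 NTES7, 11.1, 13.5 and 11.5 in P19 and 18.1, 16.3 and 16.3 in R1. P19 was lowest without overlap, and Cdkn2a was lower in P19 than in R1 (-0.50 ± 0.11, adjusted p = 0.00225), with an adjusted p of 0.0145 without P19 replicate 1, 0.0108 without P19 replicate 3 and 0.0145 without R1 replicate 1. P19 NTES7 differed from P19 by 0.42 (adjusted p = 0.0133). Cdkn2c (p18Ink4c) was below the array median in every line, and Cdkn2d (p19Ink4d) averaged 33.1 ± 10.1 in P19 NTES7, 37.1 ± 8.26 in P19 and 30.1 ± 6.46 in R1.

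The E-type cyclins activate Cdk2 at the G1 to S transition, and the 2 genes differed between P19 NTES7 and P19 in opposite directions. Ccne1 had intensities of 383, 408 and 344 in P19 NTES7, 632, 638 and 454 in P19 and 721, 728 and 801 in R1. All P19 NTES7 arrays were below all P19 arrays, which in turn were below all R1 arrays. The level was 1.50-fold lower in P19 NTES7 than in P19 (-0.59 ± 0.13, adjusted p = 0.00627) and 1.99-fold lower than in R1 (-0.99 ± 0.13, adjusted p = 7.80e-05), while P19 and R1 differed by -0.40 ± 0.13 (adjusted p = 0.0323). The difference between P19 NTES7 and P19 did not pass when any array of these lines but P19 replicate 3 was left out (adjusted p = 0.0130 to 0.0383). Nor did it pass after a further quantile normalization (0.0137), with log2(value + 16) (0.0110) or under the methods' one-way test.

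Ccne2 had intensities of 59.8, 53.0 and 62.0 in P19 NTES7, 40.9, 35.8 and 28.0 in P19 and 44.7, 44.2 and 55.9 in R1. P19 NTES7 was above P19 without overlap but overlapped R1. The difference between P19 NTES7 and P19 was 0.75 ± 0.14, or 1.68-fold (adjusted p = 0.00198), and that between P19 NTES7 and R1 was 0.28 (adjusted p = 0.192). Without P19 NTES7 replicate 3 the Ccne2 difference from P19 had an adjusted p of 0.0124. Their kinase Cdk2 averaged 213 ± 18.5 in P19 NTES7, 235 ± 4.23 in P19 and 279 ± 0.983 in R1 (SD, n = 3 each), and was 1.31-fold lower in P19 NTES7 than in R1 (adjusted p = 0.00639). This Cdk2 difference did not pass when any of 6 arrays was left out (P19 NTES7 replicate 1 or 2, P19 replicate 1 or 2, R1 replicate 1 or 2, adjusted p = 0.0111 to 0.0322).

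Of the 8 E2F factors, E2f3, E2f6 and E2f8 passed the adjusted p in some comparison and none was called. E2f3, an activating E2F, had intensities of 101, 81.3 and 66.2 in P19 NTES7, 152, 164 and 131 in P19 and 113, 116 and 113 in R1. P19 NTES7 was below P19 and below R1 on every array, and was 1.82-fold lower than P19 (-0.86 ± 0.14, adjusted p = 6.08e-04). A second E2f3 probe set gave -0.89 against P19 (adjusted p = 9.60e-05) and -0.79 against R1 (adjusted p = 1.58e-04), where the brighter one gave -0.49 (adjusted p = 0.0193). The E2f3 promoter run above carries an E2F word and a CHR word upstream of the start. Another annotated E2f3 window carried neither.

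E2f8, an atypical repressor, had the largest difference in the group, with intensities of 122, 93.1 and 82.8 in P19 NTES7, 126, 137 and 124 in P19 and 199, 194 and 154 in R1. The lines did not overlap, with P19 NTES7 lowest and R1 highest, and the level was 1.85-fold lower in P19 NTES7 than in R1 (-0.89 ± 0.14, adjusted p = 3.84e-04). E2f6, a repressor that acts without pocket proteins, averaged 58.6 ± 7.04 in P19 NTES7, 87.6 ± 7.49 in P19 and 58.8 ± 9.70 in R1 (SD, n = 3 each). It was lower in P19 NTES7 than in P19 (-0.58 ± 0.13, adjusted p = 0.00633) and higher in P19 than in R1 (0.58 ± 0.13, adjusted p = 0.00327), while P19 NTES7 and R1 differed by 0.00 ± 0.13. The E2f6 difference between P19 NTES7 and P19 did not pass without P19 replicate 1 or 2 or P19 NTES7 replicate 2 or 3 (adjusted p = 0.0298 to 0.0333), and that between P19 and R1 did not without replicate 1 or 2 of either line (0.0162 to 0.0186). The activators E2f1 and E2f2, the repressors E2f4 and E2f5, and the atypical E2f7 did not pass, and E2f2 was below the array median on average in P19 NTES7 (13.5 ± 1.35) and P19 (12.8 ± 2.39).

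**Figure D3:**
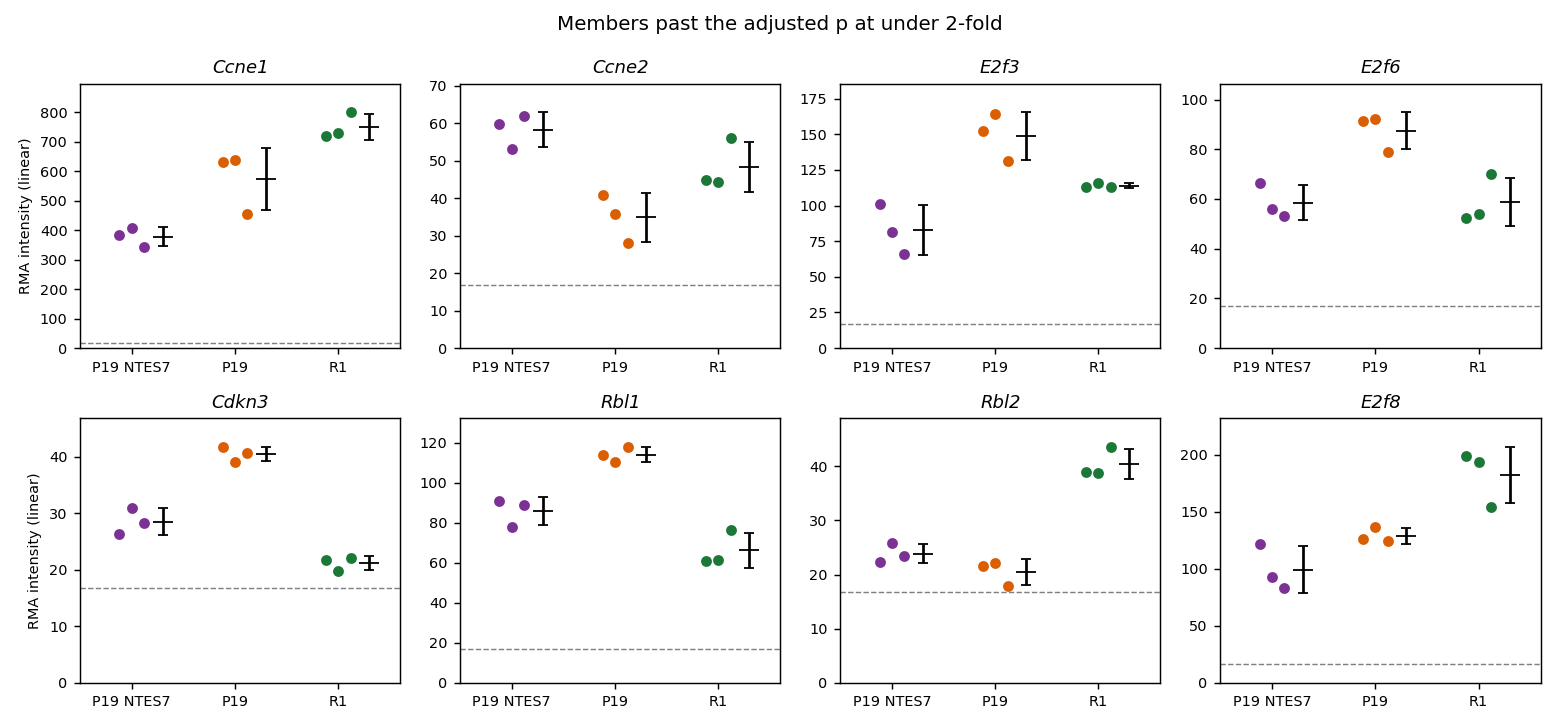
RMA intensities of 8 members that passed the adjusted p at under 2-fold are plotted on linear axes that start at 0 for the 3 arrays of P19 NTES7, P19 and R1, with the mean and SD beside the points and the array median of 16.8 as a dashed line. P19 points are highest for E2f3, E2f6, Cdkn3 and Rbl1, and P19 NTES7 points are lowest for Ccne1, E2f3 and E2f8.

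Cdt1 loads the replicative helicase onto origins in G1, and geminin (Gmnn) blocks it after S phase has begun. Cdt1 had intensities of 189, 139 and 142 in P19 NTES7, 137, 138 and 135 in P19 and 196, 206 and 199 in R1. The R1 arrays were highest, and P19 NTES7 replicate 1 was close to them while its other arrays were close to P19. Cdt1 was 1.47-fold lower in P19 than in R1 (-0.56 ± 0.12, adjusted p = 0.00197), and P19 NTES7 differed from R1 by -0.37 ± 0.12 (adjusted p = 0.0319). Gmnn averaged 43.0 ± 6.41 in P19 NTES7, 50.3 ± 5.11 in P19 and 40.1 ± 2.30 in R1 (SD, n = 3 each) and did not pass.

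The cyclins and kinases of S, G2 and M phase differed little between the lines. Ccna2 (cyclin A2) averaged 459 ± 8.11 in P19 NTES7, 457 ± 38.4 in P19 and 515 ± 13.1 in R1. Ccnb2 (cyclin B2) averaged 281 ± 22.1 in P19 NTES7, 295 ± 6.33 in P19 and 262 ± 32.5 in R1, and Cdk1, the mitotic kinase, averaged 151 ± 3.40, 166 ± 19.6 and 154 ± 8.51 in the same order (SD, n = 3 each). Their log2 differences lay between -0.18 and 0.18, and none passed. The germ cell cyclin Ccna1 was below the array median in every line.

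Cdk7, the kinase that activates other CDKs, was the member of this group with the largest difference. It had intensities of 72.3, 75.2 and 72.0 in P19 NTES7, 86.8, 69.4 and 71.1 in P19 and 96.9, 107 and 95.7 in R1. R1 was above both other lines, which overlapped, and the differences from R1 were -0.45 ± 0.11 in P19 NTES7 (adjusted p = 0.00638) and -0.40 ± 0.11 in P19 (adjusted p = 0.00922). The Cdk7 difference in P19 NTES7 did not pass without R1 replicate 1 or 2 or any P19 NTES7 array (adjusted p = 0.0167 to 0.0386), and that of P19 without R1 replicate 1 or 2, P19 replicate 2 or 3 or any P19 NTES7 array (0.0121 to 0.0531). Its second, dimmer probe set did not pass against R1, with -0.55 in P19 NTES7 (adjusted p = 0.0209) and -0.06 in P19 (adjusted p = 0.829).

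The phosphatases Cdc25b and Cdc25c, which remove the inhibitory phosphates from CDKs, and Cdkn3, a phosphatase that dephosphorylates Cdk2, were all higher in P19 than in R1. Cdc25b had intensities of 49.7, 41.1 and 42.9 in P19 NTES7, 71.2, 80.7 and 78.6 in P19 and 27.6, 29.3 and 39.9 in R1. The 3 lines did not overlap, and the level was 2.41-fold higher in P19 than in R1 (1.27 ± 0.14, adjusted p = 6.66e-06) and 1.73-fold lower in P19 NTES7 than in P19 (-0.79 ± 0.14, adjusted p = 0.00104). Between P19 NTES7 and R1 the difference of 0.48 ± 0.14 did not pass (adjusted p = 0.0183).

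Cdc25c had intensities of 95.3, 108 and 102 in P19 NTES7, 108, 111 and 113 in P19 and 51.3, 52.8 and 85.9 in R1. All R1 arrays were lower, with the third close to P19 NTES7, and the differences from R1 were 0.72 ± 0.16 in P19 NTES7 (adjusted p = 0.00428) and 0.85 ± 0.16 in P19 (adjusted p = 9.92e-04). The Cdc25c difference in P19 NTES7 did not pass without R1 replicate 1 or 2 or any P19 NTES7 array (adjusted p = 0.0112 to 0.0228). Cdkn3 had intensities of 26.3, 31.0 and 28.3 in P19 NTES7, 41.7, 39.1 and 40.6 in P19 and 21.7, 19.8 and 22.1 in R1. It was the only member of the 36 that passed in all 3 comparisons, with P19 NTES7 lying between P19 and R1 without overlap. Its log2 difference was -0.51 ± 0.10 for P19 NTES7 against P19 (adjusted p = 0.00225), 0.43 ± 0.10 for P19 NTES7 against R1 (adjusted p = 0.00513) and 0.93 ± 0.10 for P19 against R1 (adjusted p = 5.22e-06). The Cdkn3 difference between P19 NTES7 and P19 did not pass without P19 replicate 1 (adjusted p = 0.0133), and that between P19 NTES7 and R1 did not without R1 replicate 1 or 2 or P19 NTES7 replicate 2 or 3 (0.0143 to 0.0351). Cdc25a averaged 356 ± 19.3 in P19 NTES7, 337 ± 21.7 in P19 and 349.9 ± 17.5 in R1, and neither it nor Wee1 passed.

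The other genes of the cycle were read from 3 lists. Their counts stand beside the shares of the brighter genes that passed the adjusted p, 19.3% for P19 NTES7 against P19, 30.8% for P19 NTES7 against R1 and 39.5% for P19 against R1, and that were called, 4.88%, 7.87% and 12.4%. Of 31 measured genes of pre-replication and S phase, 0 were called between P19 NTES7 and P19, where 2 passed the adjusted p higher and 1 lower. With R1 in place of P19, 8 passed higher and 6 lower in P19 NTES7, and 1 was called, Pola1, the catalytic subunit of DNA polymerase alpha. Pola1 averaged 123 ± 3.65 in P19 NTES7, 152 ± 9.15 in P19 and 258 ± 24.7 in R1 (SD, n = 3 each) and was 2.09-fold lower in P19 NTES7 than in R1 (adjusted p = 3.44e-06). Between P19 and R1, 0 were called, with 4 passing higher and 6 lower. The median log2 difference of this list was 0.01 for P19 NTES7 against P19, 0.11 for P19 NTES7 against R1 and 0.03 for P19 against R1, beside -0.08, 0.02 and 0.09 for the brighter genes.

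Of 26 genes of mitosis and the anaphase-promoting complex, 1 passed lower between P19 NTES7 and P19, 6 passed higher and 3 lower between P19 NTES7 and R1, and 9 passed higher and 2 lower between P19 and R1. Pttg1, securin, which guards sister chromatids until anaphase, was the only one called. It averaged 180.3 ± 3.38 in P19 NTES7, 188 ± 3.14 in P19 and 72.3 ± 9.14 in R1 (SD, n = 3 each). It was 2.51-fold higher in P19 NTES7 than in R1 (adjusted p = 6.86e-07) and 2.62-fold higher in P19 than in R1 (adjusted p = 2.13e-07). The median log2 difference of the list was -0.22, -0.13 and 0.14 in the order of the comparisons above, beside -0.08, 0.02 and 0.09 for the brighter genes.

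Of 31 measured further regulators, 4 were called in at least 1 comparison. Ccng1 (cyclin G1), a target of p53, averaged 179 ± 6.89 in P19 NTES7, 137 ± 11.1 in P19 and 697 ± 11.3 in R1 (SD, n = 3 each), 3.91-fold lower in P19 NTES7 than in R1 (adjusted p = 5.36e-09) and 5.10-fold lower in P19 than in R1 (adjusted p = 5.10e-10). Mybl2 (B-Myb), which acts with the MuvB complex, averaged 183 ± 32.1 in P19 NTES7, 153 ± 28.1 in P19 and 453 ± 41.3 in R1, and its differences from R1 were -1.32 in P19 NTES7 (adjusted p = 2.21e-05) and -1.58 in P19 (adjusted p = 2.35e-06). Both were highest in R1 on every array. Foxm1, a driver of G2 and M phase genes, averaged 67.5 ± 8.79 in P19 NTES7, 94.4 ± 9.87 in P19 and 43.0 ± 4.09 in R1, and was called as 2.19-fold higher in P19 than in R1 (adjusted p = 6.71e-06).

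Cdkn1c (p57Kip2), an imprinted CDK inhibitor, was the only gene of the 3 lists called between P19 NTES7 and P19. It had intensities of 54.5, 47.7 and 45.2 in P19 NTES7, 21.5, 23.2 and 20.9 in P19 and 52.4, 58.2 and 42.0 in R1. P19 NTES7 overlapped R1, and both lay above P19. The level was 2.24-fold higher in P19 NTES7 than in P19 (1.17 ± 0.12, adjusted p = 1.94e-05) and differed by -0.04 ± 0.12 from R1 (adjusted p = 0.859), while P19 was 2.31-fold lower than R1 (adjusted p = 4.64e-06). In the regulator list 3 genes passed higher and 2 lower between P19 NTES7 and P19, 2 higher and 4 lower between P19 NTES7 and R1, and 5 higher and 5 lower between P19 and R1, with medians of 0.08, 0.04 and 0.04 beside the same values of the brighter genes.

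Markers of fibroblasts, the feeder cells, differed between the lines in all 3 comparisons. Of 20 such markers 10 were called between P19 NTES7 and P19, each with the higher level in P19 NTES7. By the adjusted p alone 12 passed there with the higher level in P19 NTES7 and 1, Sparc, with the lower (-0.46, adjusted p = 0.00289). Fbln1 and Mmp2 were also lower in P19 NTES7 without overlap but did not pass (adjusted p = 0.231 and 0.0324). Against R1, 3 were called in P19 NTES7 and 13 in P19, each with the lower level in the line compared with R1. Their summed intensity was 1437 to 1717 in P19 NTES7, 990.1 to 1020.5 in P19 and 2048 to 2380.2 in R1, and 3, 11 and 2 of the 20 averaged below the array median in the same order. Sparc had the highest mean of the 20 in every line, at 389 ± 10.5, 534 ± 35.0 and 454 ± 10.6 in the same order (SD, n = 3 each), and so weighed most in the sum. S100a4 and Fap averaged below the array median in every line.

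The median log2 difference of the 20 markers was 1.10 for P19 NTES7 against P19, -0.51 for P19 NTES7 against R1 and -1.88 for P19 against R1. Col1a1, for a collagen chain, averaged 297 ± 61.3 in P19 NTES7, 49.2 ± 11.6 in P19 and 342 ± 29.6 in R1 (SD, n = 3 each), and was 6.05-fold higher in P19 NTES7 than in P19 (adjusted p = 1.80e-07). In that comparison Ccnd2, Cdkn2b and Rb1 differed by 0.38, 0.40 and 0.27 and Ccnd1 and Cdkn1b by -0.41 and -0.47, none of which passed.

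Against R1, 10 of the 20 markers passed the adjusted p in P19 NTES7 and 15 in P19, each with the lower level in the line compared with R1. Fbln1 and Sparc were higher in P19 than in R1 without overlap but did not pass (adjusted p = 0.0405 and 0.0675). Dcn, for the matrix proteoglycan decorin, was 2.80-fold lower in P19 NTES7 than in R1 (adjusted p = 1.47e-05), while Col1a1 differed by -0.22 (adjusted p = 0.393) and the receptor gene Pdgfra by 0.02 (adjusted p = 0.929). Ccnd1, Ccnd2, Rb1 and Cdkn2b were lower than in R1 in the same comparisons, and Cdkn1b was higher. The part of the fibroblast markers in the differences of the members was not tested.

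**Figure D4:**
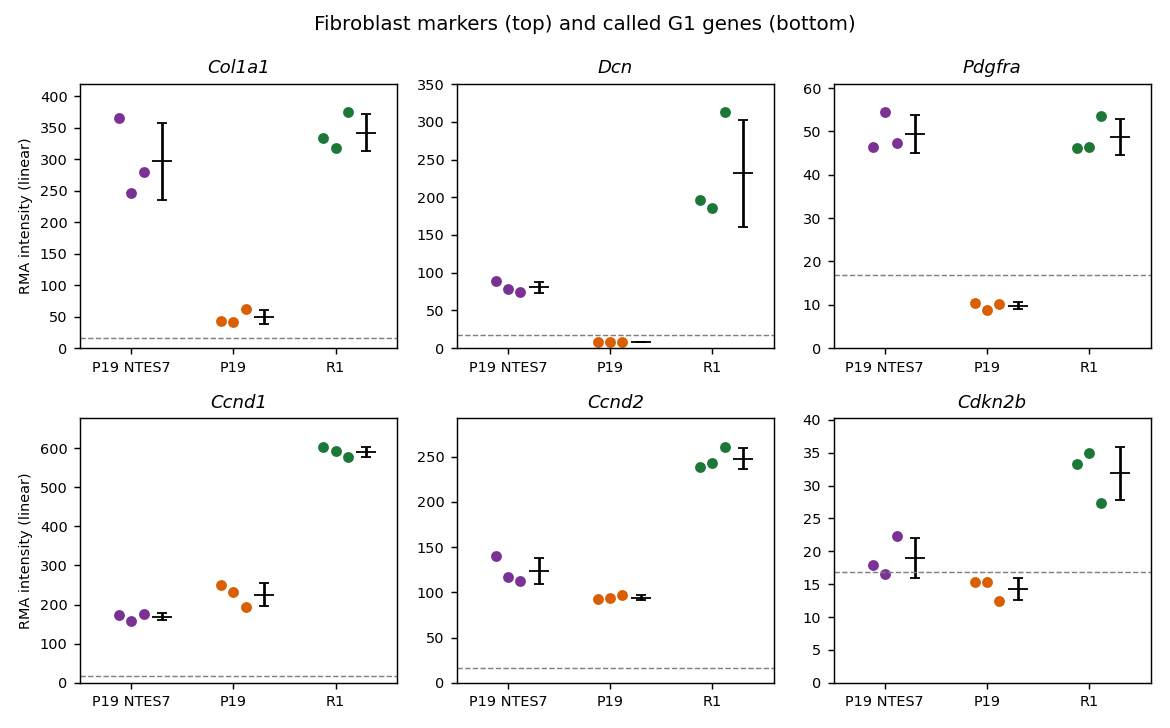
RMA intensities of 3 fibroblast markers (top) and of Ccnd1, Ccnd2 and Cdkn2b (bottom) are plotted on linear axes that start at 0 for the 3 arrays of P19 NTES7, P19 and R1, with the mean and SD beside the points and the array median of 16.8 as a dashed line. Col1a1 and Pdgfra overlap between P19 NTES7 and R1, and Dcn lies lower in P19 NTES7, as do Ccnd1, Ccnd2 and Cdkn2b.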

How the data were processed

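Total RNA (100 ng) from P19 NTES7, P19 and R1 cells was labelled with biotin and hybridised, with 3 arrays for each line. The deposited intensities of 28853 probe sets were computed by the authors with RMA (version not given in the sources used here) and are on the linear scale. Genes were named from the platform annotation, in which 21789 probe sets had 1 gene symbol, 1621 several and 5443 none, and probe sets with several symbols were not used for named genes. No sample of the labels is called P19 NTES7, and the arrays of stem cells derived from P19 were taken as this line.

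Log2 intensities of all probe sets and all 9 arrays were fitted in 1 model with limma (version 3.58.1, R version 4.3.3) by lmFit and eBayes, with a mean for each line, and tested two-sided. P-values of limma were adjusted by Benjamini-Hochberg within each comparison, across every probe set on the array. The limits of 0.01 and 2-fold were taken from the study's methods. There 0.01 was set on the p-value of a one-way analysis of variance with no adjustment named, and here on the adjusted p of limma. Errors of log2 differences are standard errors. The fit was also tested on simulated data with known changes, whose spread was taken from these arrays. An intensity carries no read depth, and the number of arrays limits the precision.

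The members and the lists were chosen with earlier results of these data known. Values of every array are given for called members and for the member with the largest difference in each group without a call, and up to 4 called genes are named from each list. Array values of Rbl1, Rbl2, Ccne2, E2f3, Cdc25c, Cdkn3 and Cdkn1c, and the choice of promoters and of the fibroblast markers shown, were added after their values were seen. Those of Cdkn2a also fall outside this rule. Cdkn1a of the lists had no probe set with 1 symbol. Alternatives were a further quantile normalization, centring on array medians, an added constant, a filter on dim probe sets, other moderation, fits on the arrays of a pair of lines, a replicate block, the methods' one-way test, averaged probe sets and leaving out each array. The methods name a one-way analysis of variance without saying which lines entered a test. It was run here on the linear intensities of a pair of lines, and its Benjamini-Hochberg adjustment was added here. Promoter sequences came from RefSeq (GRCm38.p6) and were searched for fixed words. Columns of array values with no sample numbered 0.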

Additional observations from a re-analysis of the deposited data

How the results depend on the processing

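No member difference that passed was reversed in direction under the alternatives named above. A second probe set read alone was not among them. For Cdkn1b it gave -0.04 for P19 NTES7 against R1, where the brighter one gave 0.70. The 32 member differences that passed the adjusted p gave 319 values under alternatives that kept all arrays, of which 268 passed again and 51 did not, and 288 values without 1 array, of which 240 passed and 48 did not. With log2(value + 16), which compresses low values, 412 probe sets were called between P19 NTES7 and P19 (839 without the constant), 709 (1305) when P19 NTES7 was set against R1 and 1088 (2135) when P19 was. Called members between P19 and R1 then numbered 3 (6 without the constant), with Cdkn2b, Cdkn1b and Cdc25b lost, and Ccnd2 was lost between P19 NTES7 and R1. The methods' one-way test with Benjamini-Hochberg adjustment, which takes the spread from 6 arrays gene by gene, called 176, 456 and 1197 probe sets and 0, 2 and 4 members in the same order, with Ccnd2, Cdkn2b and Cdkn1b lost, and 0, 2 and 8 members passed its adjusted p (6, 12 and 14 with limma).

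Without 1 array, called members ranged over 0 to 1 for P19 NTES7 against P19 (1 being E2f3, without P19 NTES7 replicate 1), 2 to 4 for P19 NTES7 against R1 and 5 to 7 for P19 against R1. Members past the adjusted p ranged over 3 to 8 (3 without P19 NTES7 replicate 3), 7 to 14 (7 without R1 replicate 1, 8 without R1 replicate 2 or P19 NTES7 replicate 2) and 11 to 17. Called probe sets ranged over 809 to 881, 1289 to 1436 and 2115 to 2259. Cdkn1b was not called between P19 and R1 with the mean of its probe sets, nor Ccnd2 between P19 NTES7 and R1 after a further quantile normalization.

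The labels share replicate numbers. Deviations of arrays with the same number correlated between -0.22 and 0.04, and those of arrays with other numbers between -0.15 and 0.21. The highest value, 0.21, was between R1 replicate 3 and P19 NTES7 replicate 1. Whether arrays of different lines were paired or shared a batch was not tested. With a replicate block, called members numbered 0, 3 and 6, members past the adjusted p 5, 9 and 15, and called probe sets 837, 1302 and 2136.

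With 3 arrays a line, smaller changes can be missed. Members below or near the array median, such as Cdkn2b, Cdkn2a, E2f2, Cdkn2c and Ccna1, lie where intensity says least about the amount of transcript.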
